A study of Mus musculus with 6 samples.

Results

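Glycolysis breaks glucose down to pyruvate, and central carbon metabolism carries pyruvate, glutamine and the side branches of glycolysis on to energy and building blocks. The genes described here are 40 members of this pathway, from glucose transporters to glutamine transporters, chosen by symbol from a list of enzymes, carriers and regulators. Their values were not used in the choice, but earlier results of these data were known when it was made. All 40 have a row in a table of 14744 genes. All 40 also passed a filter on low values, which asked for 10 or more in 3 or more of the 6 libraries and left 11296 genes of the table. *Pfkm* passed it through the libraries labelled Bach2-cKO, with 1 WT library at 10 or more.

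In glycolysis, hexokinases trap glucose inside the cell, phosphofructokinases make the committed step, and the lower steps return ATP and leave pyruvate, which lactate dehydrogenase reduces to lactate or mitochondria oxidize in the tricarboxylic acid (TCA) cycle. The transcription factor HIF-1α is known to raise many glycolytic genes and the kinase PDK1, which closes the entry of pyruvate into the TCA cycle. Activated T cells are known to take up more glucose and to make lactate even with oxygen present, and T follicular helper (Tfh) cells, which help B cells in germinal centers, are known to be less glycolytic than Th1 cells in viral infection.

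RNA of Tfh cells was sequenced in 3 WT samples and in 3 samples labelled Bach2-cKO. All came from mesenteric lymph nodes (MLNs) of mice labelled as C57BL/6, a strain given as C57BL/6J in the study's methods, 2 to 3 months old, and no treatment is named. The labels say only WT for the controls, which the study's account of its mice describes as Cd4-Cre littermates; the other mice are Bach2fl/flCd4-cre, with *Bach2* to be deleted wherever Cd4-Cre is active, from the double-positive thymocyte on and thus also in CD8 T cells. Each library was made from 10000 to 30000 cells sorted as CD4+B220-CD44+PD-1+CXCR5+, a gate that leaves Foxp3+ follicular regulatory cells in. The values are normalized read counts, taken here as reads per gene divided by a size factor of the library, since the normalization is not described. They sum to between 7361229 and 8135325 per library, and the labels do not say whether the samples come from separate animals, so p-values measure the spread between these samples. In a sorted population, fewer cells of a kind and less RNA per cell cannot be told apart.

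*Bach2* itself was at 233, 222 and 105 normalized read counts in WT replicates 1, 2 and 3 and at 399, 763 and 591 in replicates 1, 2 and 3 labelled Bach2-cKO. Every library labelled Bach2-cKO was above every WT library; the log2 fold change was 1.68 and limma's adjusted p = 0.141. The gene goes against the label, although reads on exons outside the deleted ones enter its count, so the wording libraries labelled Bach2-cKO is used throughout. Of the genes of the sort, *Cd4* was higher in each library labelled Bach2-cKO (log2 fold change 0.49, adjusted p = 0.193) and so was *Cd44* (log2 fold change 0.93, adjusted p = 0.146). *Cxcr5* (log2 fold change 0.09, adjusted p = 0.864) and *Pdcd1* (log2 fold change -0.26, adjusted p = 0.557), the gene of PD-1, overlapped between the groups. *Cd3e*, a chain of the T cell receptor complex, was at 10623, 9648 and 11924 in WT and at 4534, 5238 and 6139.8 in the libraries labelled Bach2-cKO, which lay below every WT library (log2 fold change -1.02, adjusted p = 0.141). WT replicate 1 stood apart from the other libraries, with 11648 genes above 0 against 13111 to 13567. Its weight in a limma fit that weights libraries was 0.206, against 0.421 to 5.54 for the other libraries, and the members' counts, the medians of the members and of most lists, and some single values are also given without it.

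Differences were tested with limma on log2(normalized read count + 1) over all 11296 genes, a scale on which a fold change understates low genes. The thresholds for a call were an adjusted p under 0.01 together with over 2-fold. Of the 40 members 0 were called higher and 0 lower, as were 0% of all genes tested in each direction. At an unadjusted p under 0.05 limma gave 4 members higher and 13 lower. DESeq2 was run on the 5 libraries with recovered reads, 2 of them WT. WT replicate 1 was left out by a rule on its step, given below, and no count test was run on all 6 libraries. DESeq2 called 1 member higher, *Pfkm*, where it called 0.292% of all genes higher, and 1 lower, *Eno1*, where it called 0.505% lower. With no filter, an alternative added after seeing the data, DESeq2 called the same 2 members, against 0.206% of 14560 genes higher and 0.337% lower. EdgeR on the same 5 libraries called 0 genes, with 2070 genes and 11 members at an unadjusted p under 0.05. A limma fit with library weights called 2 members higher, *Pfkm* and *Pdk1*, against 4.97% of all genes. It called 5 lower, *Gapdh*, *Pgam1*, *Eno1*, *Ldhb* and *G6pdx*, against 5.02% of all genes. Its weights, estimated from these same libraries, were 0.206, 1.04 and 2.51 in WT and 0.791, 5.54 and 0.421 in the libraries labelled Bach2-cKO. These calls thus rest mostly on WT replicate 3 and replicate 2 labelled Bach2-cKO. For a single gene, 3 libraries against 3 cannot give an exact permutation p under 0.1, two-sided.

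The 40 members did not share a direction. Log2 fold changes were above 0 for 19 and below 0 for 21, from -1.65 for *Pgam1* to 3.21 for *Pfkm*, and their median was -0.10 against 0.08 over all genes tested. The 4 members higher at an unadjusted p under 0.05 were *Slc2a1*, *Pfkm*, *Pdk1* and *Ogdh*, 10% of the members, where 10.1% of all genes tested were higher. The 13 lower were *Aldoa*, *Tpi1*, *Gapdh*, *Pgk1*, *Pgam1*, *Eno1*, *Ldhb*, *G6pdx*, *Idh3a*, *Sucla2*, *Fh1*, *Mdh1* and *Mdh2*, or 32.5% of the members, where 10.2% of all genes were lower. Groups without overlap were found for 5 members higher in the libraries labelled Bach2-cKO, 12.5% of the members against 14.6% of all genes, and for 8 lower, 20% of the members against 12.2% of all genes. The share of higher members was thus near that of all genes, and the share of lower members above it.

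Without WT replicate 1, at an unadjusted p under 0.05, there were 5 members higher, with *Tkt* added, against 9.79% of all genes, and 9 lower, against 9.43% of all genes; *Aldoa*, *Tpi1*, *Pgk1* and *Sucla2* were no longer among the lower. Groups without overlap, a count without WT replicate 1 chosen after seeing the data, numbered 12 members higher against 20.5% of all genes and 9 lower against 18.1% of all genes. The median of the members was then -0.03, against 0.03 over all genes tested. Other libraries moved the counts too. Without replicate 1 labelled Bach2-cKO 2 members were higher at an unadjusted p under 0.05, against 4.14% of all genes, and 6 lower, against 5.36%. Groups without overlap numbered 8 higher against 27.2% of all genes and 16 lower against 23% without replicate 3 labelled Bach2-cKO, and 15 lower against 18.8% without WT replicate 2.

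**Figure D1:**
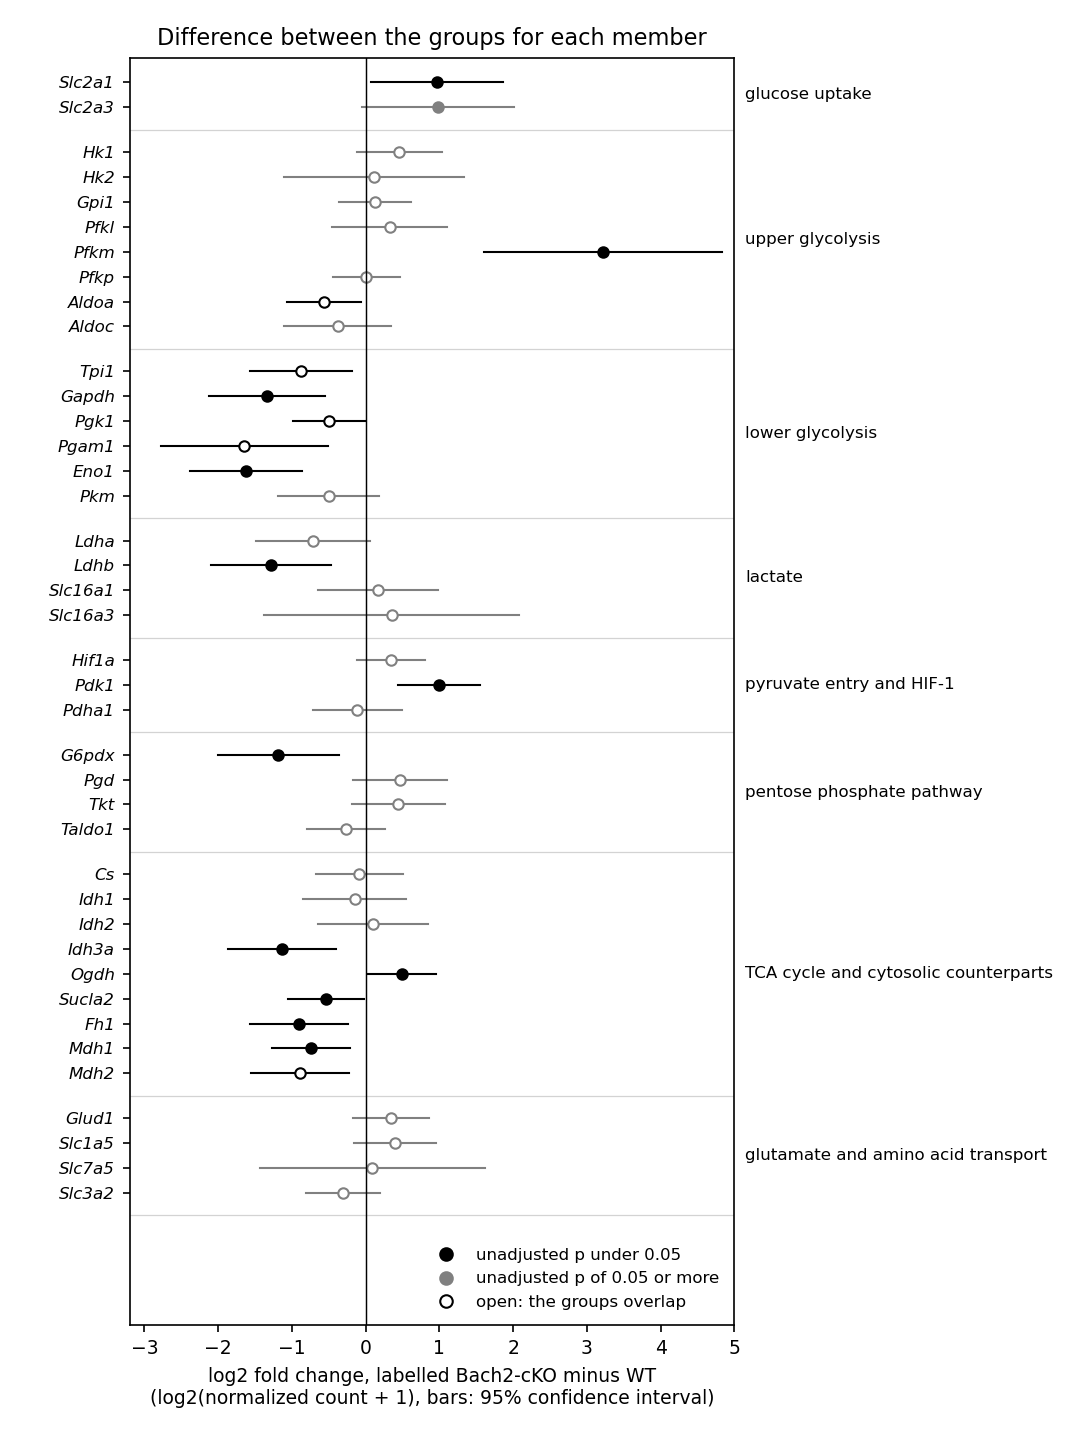
Log2 fold change of each of the 40 members, libraries labelled Bach2-cKO minus WT, with 95% confidence intervals from limma, grouped by role; filled points mark members whose groups of 3 libraries do not overlap and black points an unadjusted p under 0.05. The 6 genes of lower glycolysis all lie below 0, from -1.65 to -0.50, and *Pfkm* lies farthest above it at 3.21.

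Glucose enters T cells through GLUT1 and GLUT3, the products of *Slc2a1* and *Slc2a3*, and both genes were low in level, with all libraries labelled Bach2-cKO above all WT libraries. *Slc2a1* was at 52.5, 58.3 and 71.7 normalized read counts in WT and at 140.4, 94.5 and 128 in the libraries labelled Bach2-cKO. No library overlapped, and the log2 fold change was 0.97 (standard error 0.40, adjusted p = 0.218). *Slc2a3* was at 35.3, 91.98 and 65.5 in WT and at 134, 101 and 125 in the libraries labelled Bach2-cKO. Its groups did not overlap either, with WT replicate 2 closest to the other group, and the log2 fold change was 0.98 (standard error 0.46, adjusted p = 0.260), or 0.61 without WT replicate 1. Per kb of transcript the level of *Slc2a1* was 18.7 in WT and 37.1 in the libraries labelled Bach2-cKO, and that of *Slc2a3* was 16.2 and 30.3. The share of *Slc2a1* in the level of both per kb was 64.3%, 43.5% and 57.1% in WT and 55.9%, 53.3% and 55.4% in the libraries labelled Bach2-cKO, inside the wide WT range.

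In upper glycolysis the muscle-type phosphofructokinase gene *Pfkm* had the largest difference of the 8 genes. It was at 3.03, 10.1 and 8.32 normalized read counts in WT and at 62.1, 78.4 and 65.5 in the libraries labelled Bach2-cKO. Each WT library was far below each library of the other group, and the WT values rest on few reads, 9 and 8 recovered in WT replicates 2 and 3 against 42, 117 and 64 in the other group. On the log2 scale the difference was 3.21 (95% confidence interval 1.60 to 4.83), at an adjusted p = 0.141. DESeq2 on 5 libraries gave 2.87 with an adjusted p = 0.00334. Since the gene passed the filter through the group where it is high, both tests were also run with no filter, which gave an adjusted p = 0.143 in limma and 0.00550 in DESeq2. *Pfkm* overlaps *Senp1* on the opposite strand and *Gm26513* on its own, and whether reads were assigned by strand is not given in the sources used here; *Senp1* had a log2 fold change of -0.02.

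*Pfkm* remained a minor part of phosphofructokinase RNA. Per kb it made up 0.285%, 1.25% and 0.735% of the summed level of *Pfkl*, *Pfkm* and *Pfkp* in WT and 5.16%, 7.22% and 6.48% in the libraries labelled Bach2-cKO, without overlap. *Pfkp*, the platelet-type gene, held a mean share of 81.2% in WT and 73.8% in the other group, and its difference on the log2 scale was 0.01, between -0.45 and 0.47 at 95% confidence. *Pfkl*, the liver-type gene, was at 0.33 on the same scale, or 0.63 without WT replicate 1 and 0.02 without WT replicate 2.

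*Hk2*, the hexokinase that T cells are known to induce on activation, was at 77.7, 37.0 and 34.3 normalized read counts in WT and at 59.1, 36.9 and 57.3 in the libraries labelled Bach2-cKO. The groups overlapped, and the log2 fold change was 0.11 (standard error 0.55, adjusted p = 0.926). *Hk1* held most of the level per kb of *Hk1* and *Hk2* together, with a mean share of 88.1% in WT and 90.9% in the libraries labelled Bach2-cKO. *Hk3*, not a member and not in this share, had a mean level per kb of 4.07 in WT and 13.4 in the other group. It did not meet the rule, given below, for naming genes of other lists, and these means are not a tested difference. *Aldoa*, the aldolase that splits fructose bisphosphate, had the highest level per kb of upper glycolysis and was at 7632, 4535 and 6886 in WT and at 4067, 3929.8 and 4578 in the other group. WT replicate 2 lay inside the range of the libraries labelled Bach2-cKO, and the log2 fold change was -0.57 (adjusted p = 0.204). *Hk1*, *Gpi1*, *Pfkl* and *Aldoc* had log2 fold changes between -0.38 for *Aldoc* and 0.46 for *Hk1*, with overlapping groups. With a trend in transcript length and GC, described below, removed, *Hk1*, *Gpi1* and *Pfkl* were at -0.21, -0.08 and -0.28. The median of upper glycolysis was 0.12, and -0.32 with that trend removed.

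In lower glycolysis, from triose phosphate to pyruvate, the log2 fold changes of all 6 genes were below 0. The median log2 fold change of *Tpi1*, *Gapdh*, *Pgk1*, *Pgam1*, *Eno1* and *Pkm* was -1.10, and 5 of the 6, all but *Pkm*, had an unadjusted p under 0.05, where 10.2% of all genes tested were lower. The 6 are short, with a median of 1.80 kb, and among genes under 3 kb with a mean of at least 500, 27.5% were lower. With the length and GC trend removed the median was -1.004. *Tpi1*, *Gapdh*, *Pgam1* and *Eno1* then had an unadjusted p under 0.05, against 9.29% of all genes. Without WT replicate 1 the median was -0.84 and 3 of the 6, *Gapdh*, *Pgam1* and *Eno1*, had an unadjusted p under 0.05, where 9.43% of all genes were lower. The signs of these 6 genes were negative in each of 19 other settings. Their summed values made up 0.766%, 0.406% and 0.489% of all values in WT and 0.190%, 0.221% and 0.383% in the libraries labelled Bach2-cKO, so that the groups did not overlap.

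*Gapdh*, the glyceraldehyde-3-phosphate dehydrogenase gene with the highest level per kb of the 40 members, was at 33528, 18088 and 24162 normalized read counts in WT and at 6673, 8110.2 and 16792 in the libraries labelled Bach2-cKO. The groups did not overlap, with WT replicate 2 just above replicate 3 labelled Bach2-cKO, and the log2 fold change was -1.34 (standard error 0.35, adjusted p = 0.141). *Eno1*, the enolase, was at 9281, 4174 and 4790.5 in WT and at 1273, 1868 and 2686 in the other group. All WT libraries lay above all others, WT replicate 1 far above, and the log2 fold change was -1.62 (standard error 0.34, adjusted p = 0.141), or -1.27 without WT replicate 1. DESeq2 on 5 libraries gave -1.23 with an adjusted p = 0.00803. *Pgam1*, phosphoglycerate mutase, had the lowest log2 fold change of the members in limma on 6 libraries, -1.65 (standard error 0.51), but replicate 3 labelled Bach2-cKO, at 845, lay above WT replicate 2, at 778. Its log2 fold change was -1.24 without WT replicate 1 and -1.01 in DESeq2 on 5 libraries, and *Eno1* was lower in both. *Tpi1* (-0.87), *Pgk1* (-0.50) and *Pkm* (-0.50), the triose phosphate isomerase, phosphoglycerate kinase and pyruvate kinase genes, had overlapping groups, and without WT replicate 1 their log2 fold changes were -0.58, -0.35 and -0.13. *Gapdh*, *Eno1*, *Pgam1*, *Ldha* and *Aldoa* have near-identical processed pseudogenes, so their counts per gene carry some uncertainty in read assignment.

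**Figure D2:**
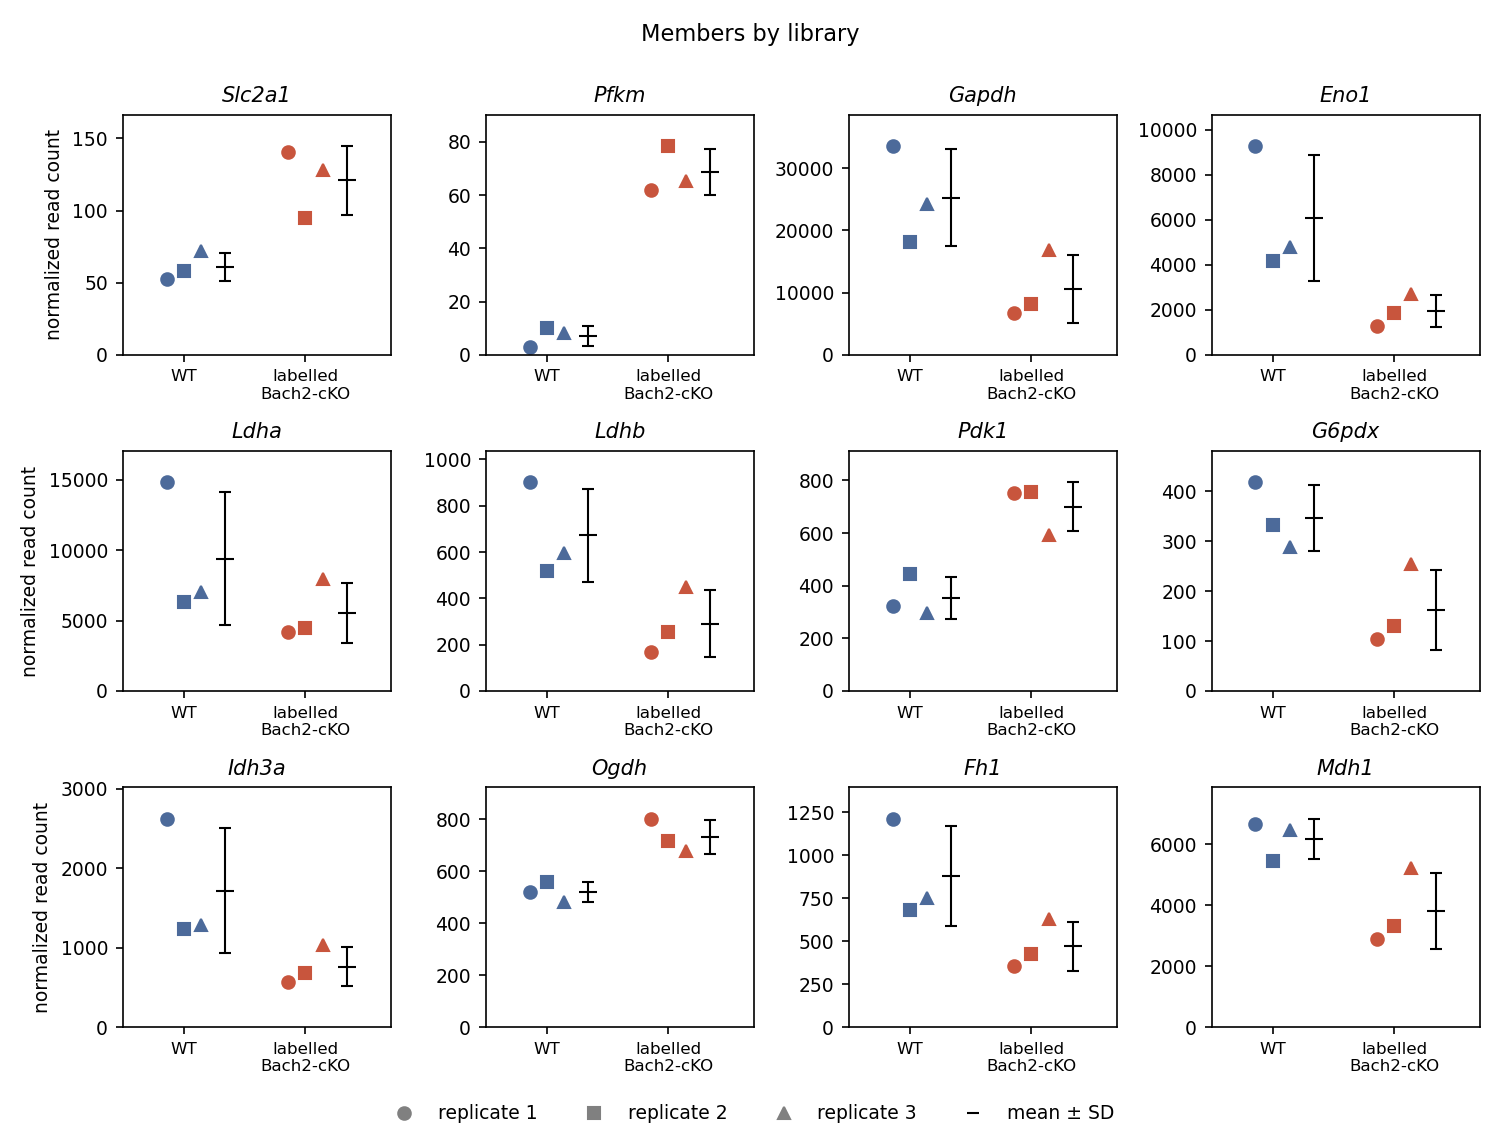
Normalized read counts of 12 members in each library, WT and labelled Bach2-cKO, with the mean and SD of each group of 3 beside the points. *Pfkm* lies between 3.03 and 10.1 in WT and at 62.1 or more in the other group, while *Gapdh*, *Eno1* and *Ldhb* are lower in each library labelled Bach2-cKO and *Ldha* overlaps.

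The 4 promoter windows shown here are those of the members with the lowest unadjusted p among those whose groups do not overlap, *Eno1* and *Gapdh* on the lower side and *Pfkm* and *Pdk1* on the higher side. Each is 300 bases of RefSeq on GRCm38.p6, from 250 before to 50 after a start site, written 5′ to 3′ on the strand of the gene, at chr4:150236458-150236757 (+) for *Eno1*, chr6:125165724-125166023 (-) for *Gapdh*, chr15:98092339-98092638 (+) for *Pfkm* and chr2:71872974-71873273 (+) for *Pdk1*. Where a gene has several windows, that nearest its 5′ end in GENCODE M21 is shown. Capitals mark matches, on either strand, to ACGTG or GCGTG, the core of the motif known for HIF-1, and to CACGTG, the E-box, which holds ACGTG on both strands.
Eno1: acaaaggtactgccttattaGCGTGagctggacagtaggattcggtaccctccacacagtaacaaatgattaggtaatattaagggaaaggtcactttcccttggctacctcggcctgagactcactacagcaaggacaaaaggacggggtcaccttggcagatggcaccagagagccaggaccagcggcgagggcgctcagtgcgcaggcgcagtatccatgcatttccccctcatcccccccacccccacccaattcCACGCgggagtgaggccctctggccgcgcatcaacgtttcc
Gapdh: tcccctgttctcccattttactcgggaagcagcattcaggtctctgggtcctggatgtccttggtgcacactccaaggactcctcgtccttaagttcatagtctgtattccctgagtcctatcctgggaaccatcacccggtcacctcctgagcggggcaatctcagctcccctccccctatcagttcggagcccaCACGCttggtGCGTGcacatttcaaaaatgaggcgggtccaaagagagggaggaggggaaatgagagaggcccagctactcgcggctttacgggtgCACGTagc
Pfkm: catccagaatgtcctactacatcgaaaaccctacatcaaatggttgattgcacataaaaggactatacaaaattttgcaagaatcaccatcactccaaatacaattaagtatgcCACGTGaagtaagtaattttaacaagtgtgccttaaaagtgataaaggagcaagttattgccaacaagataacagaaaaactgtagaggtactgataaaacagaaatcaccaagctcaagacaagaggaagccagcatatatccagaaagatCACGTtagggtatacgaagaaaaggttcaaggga
Pdk1: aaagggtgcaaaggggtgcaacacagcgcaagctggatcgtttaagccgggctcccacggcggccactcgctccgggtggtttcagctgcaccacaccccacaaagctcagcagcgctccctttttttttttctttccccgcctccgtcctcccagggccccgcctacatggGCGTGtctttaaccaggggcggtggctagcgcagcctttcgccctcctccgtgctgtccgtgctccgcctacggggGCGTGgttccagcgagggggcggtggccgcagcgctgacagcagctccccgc

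ACGTG or GCGTG was found in 45 of the 55 windows of the 36 members with a promoter in the table, or 81.8%, against 62.3% of the 10860 windows of genes tested and 43.8% of all 32851 windows. Among the members lower at an unadjusted p under 0.05 it was in 13 of 16 windows, and among those higher in 11 of 13. CACGTG was found in 7 of 55 windows of members, 12.7%, against 10.1% for genes tested and 7.15% for all windows. It was in 0 of the 16 windows of the lower members and in 4 of the 13 of the higher ones, which come from 4 genes, 2 of them with the motif. Of the 4 windows shown, that of *Pfkm* holds it. The AP-1-type motif TGANTCA, where N is any base, was in 1 of 55 windows, of *Aldoa*, against 4.86% for genes tested and 7.81% for all windows. These matches describe letters in the windows. *Slc2a3*, *Slc1a5*, *Idh3a* and *Slc7a5* are the members without a window.

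At the lactate step 1 of 4 genes, *Ldhb*, was lower at an unadjusted p under 0.05, where 10.2% of all genes tested were lower, and the groups of the other 3 overlapped. *Ldha*, which favors lactate, was at 14835, 6348 and 7048 normalized read counts in WT and at 4160.4, 4503 and 7989 in the libraries labelled Bach2-cKO. The groups overlapped, since replicate 3 labelled Bach2-cKO lay above WT replicates 2 and 3, and the log2 fold change was -0.72 (standard error 0.35, adjusted p = 0.271), or -0.33 without WT replicate 1. *Ldhb*, which favors pyruvate, was at 901, 518 and 596 in WT and at 168, 253 and 449 in the other group. Its groups did not overlap, and the log2 fold change was -1.28 (standard error 0.37, adjusted p = 0.146). Per kb *Ldhb* made up 7.80%, 10.2% and 10.5% of lactate dehydrogenase in WT and 5.34%, 7.26% and 7.26% in the libraries labelled Bach2-cKO, again without overlap. *Slc16a1* and *Slc16a3*, which carry lactate across the cell membrane as MCT1 and MCT4, had log2 fold changes of 0.17 and 0.35 with overlapping groups.

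At the entry of pyruvate into mitochondria, *Pdk1*, the kinase that switches pyruvate dehydrogenase off, was higher in the libraries labelled Bach2-cKO. It was at 322, 445 and 295 normalized read counts in WT and at 752, 755 and 594 in the libraries labelled Bach2-cKO. The groups did not overlap, and the difference on the log2 scale was 0.996 (95% confidence interval 0.44 to 1.55), at an adjusted p = 0.141, or 0.60 with a trend in transcript length and GC, described below, removed. Its sister gene *Pdk3* lay on the other side, at 1486, 654 and 1111 in WT and 476, 469.7 and 629 in the other group. No library of *Pdk3* crossed into the range of the other group, and its log2 fold change was -0.98 (adjusted p = 0.155), a gene named after its values were seen. Per kb *Pdk1* thus made up 8.09%, 20.6% and 9.42% of *Pdk1*, *Pdk2* and *Pdk3* together in WT and 37.8%, 38.0% and 27.0% in the libraries labelled Bach2-cKO. *Hif1a*, the oxygen-regulated subunit of HIF-1, was at 3840.5, 4608 and 4937 in WT and at 6862, 5531 and 4733 in the other group. The groups overlapped through replicate 3 labelled Bach2-cKO, and the log2 fold change was 0.35 (standard error 0.21, adjusted p = 0.347), or 0.21 without replicate 1 labelled Bach2-cKO and 0.13 with the trend removed. *Pdha1*, a subunit of pyruvate dehydrogenase, had a log2 fold change of -0.11, or -0.33 without WT replicate 1.

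**Figure D3:**
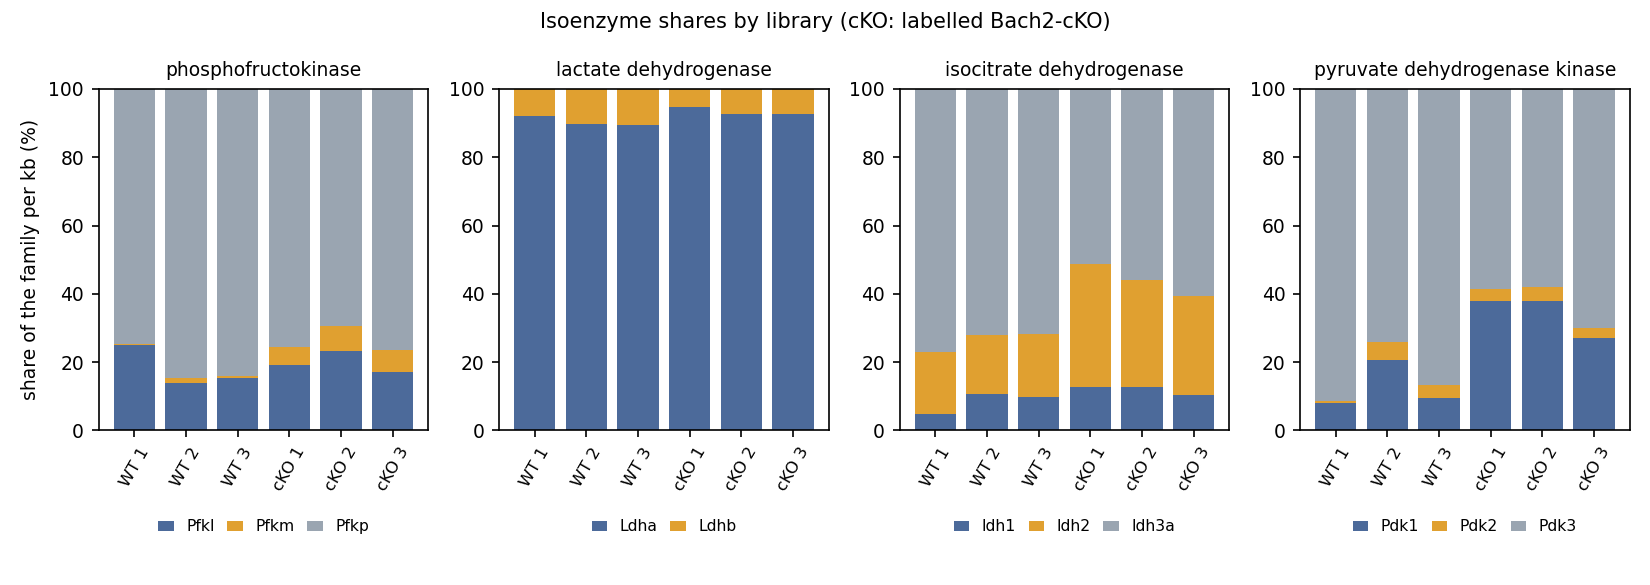
Share of each gene in the summed level per kb of transcript of the genes shown in its panel, in percent, in each library (WT 1 to 3 and labelled Bach2-cKO 1 to 3). The isocitrate dehydrogenase panel leaves out *Idh3b* and *Idh3g*. *Pfkm*, *Idh2* and *Pdk1* take a larger share in each library labelled Bach2-cKO than in any WT library, with means of 6.29% against 0.758%, 32.1% against 17.9% and 34.3% against 12.7%.

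In the pentose phosphate pathway, which makes NADPH and ribose, 1 of 4 genes, *G6pdx*, was lower at an unadjusted p under 0.05, against 10.2% of all genes tested. *G6pdx*, its entry enzyme, was at 418, 332 and 289 normalized read counts in WT and at 103, 129 and 254 in the libraries labelled Bach2-cKO. The groups did not overlap, with replicate 3 labelled Bach2-cKO nearest to WT, and the log2 fold change was -1.18 (standard error 0.37, adjusted p = 0.157). *Taldo1*, transaldolase, had the highest level per kb of the 4 genes and was at 2942, 1635 and 2222 in WT and at 1695, 1731 and 2080.3 in the other group. Its groups overlapped, and the log2 fold change was -0.27 (adjusted p = 0.515), or -0.06 both without WT replicate 1 and with the trend removed. *Pgd*, the dehydrogenase that follows *G6pdx*, and *Tkt*, transketolase, had log2 fold changes of 0.46 and 0.45 with overlapping groups, and of 0.47 and 0.11 with the trend removed.

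In the TCA cycle and its cytosolic counterparts 5 of 9 genes were lower at an unadjusted p under 0.05, against 10.2% of all genes tested, and 1, *Ogdh*, higher, against 10.1%. The median log2 fold change was -0.54, or -0.50 without WT replicate 1 and -0.20 with the trend removed. *Idh3a*, a catalytic subunit of the NAD-dependent isocitrate dehydrogenase, was at 2627, 1236 and 1290.4 normalized read counts in WT and at 563, 681 and 1036 in the libraries labelled Bach2-cKO. The groups did not overlap, WT replicate 1 was high, and the log2 fold change was -1.13 (standard error 0.33, adjusted p = 0.147), or -0.78 without WT replicate 1. *Fh1*, fumarase, was at 1213, 679 and 749 in WT and at 353, 424 and 631 in the other group. Again no library crossed over, with a log2 fold change of -0.90 (adjusted p = 0.164). *Sucla2*, a subunit of succinyl-CoA synthetase, was at 1369, 1214 and 1321 in WT and at 687, 876 and 1183 in the other group. Its groups lay close, replicate 3 labelled Bach2-cKO just under WT replicate 2, with a log2 fold change of -0.54 (adjusted p = 0.230), or -0.19 with the trend removed.

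The malate dehydrogenases, of the cytosol (*Mdh1*) and the mitochondria (*Mdh2*), were the TCA group's most abundant genes per kb. *Mdh1* was at 6650.5, 5436 and 6480.2 normalized read counts in WT and at 2882, 3329 and 5224 in the libraries labelled Bach2-cKO. Its groups did not overlap, and the log2 fold change was -0.74 (standard error 0.24, adjusted p = 0.159), or -0.44 with the trend removed. *Mdh2* was at 6989, 3809 and 4550.3 in WT and at 2034, 2357 and 4013 in the other group. Replicate 3 labelled Bach2-cKO lay above WT replicate 2, and the log2 fold change was -0.88 (standard error 0.30, adjusted p = 0.166). The share of *Mdh1* in the level of both per kb had a mean of 46.1% in WT and 48.6% in the other group.

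*Ogdh*, a subunit of the oxoglutarate dehydrogenase complex, was at 519.8, 559 and 480.4 normalized read counts in WT and at 803, 716 and 677 in the libraries labelled Bach2-cKO. The groups did not overlap, and the log2 fold change was 0.49 (standard error 0.21, adjusted p = 0.225), but it was 0.02 once the trend in length and GC was removed. *Cs*, *Idh1* and *Idh2*, citrate synthase and the NADP-dependent isocitrate dehydrogenases of the cytosol and the mitochondria, had log2 fold changes of -0.08, -0.15 and 0.10 with overlapping groups. Beside the lower *Idh3a*, the share of *Idh2* in the summed level per kb of *Idh1*, *Idh2* and *Idh3a* had a mean of 17.9% in WT and 32.1% in the libraries labelled Bach2-cKO, without overlap. *Idh3b* and *Idh3g*, the other subunits of the NAD-dependent enzyme, are not members and not in this share.

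Glutamine reaches the TCA cycle through *Slc1a5*, the ASCT2 transporter, and *Glud1*, glutamate dehydrogenase. *Slc1a5* was at 515, 798 and 838 normalized read counts in WT and at 967, 1053 and 774 in the libraries labelled Bach2-cKO. The groups overlapped, and the log2 fold change was 0.40 (standard error 0.25, adjusted p = 0.369), or 0.18 without WT replicate 1 and 0.10 with the trend removed. *Glud1* was at 0.34 on the log2 scale, and *Slc7a5* and *Slc3a2*, which form the large neutral amino acid transporter, were at 0.09 and -0.30. Without WT replicate 1 these 3 were at 0.46, 0.74 and -0.13, and with the trend removed at 0.13, -0.43 and -0.48. The lowest unadjusted p of the 4 genes was 0.141, for *Slc1a5*.

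Levels of the members moved with single libraries as well as with the groups. WT replicate 1 was the highest WT library for 27 of the 40 members, 67.5%, and for 38.3% of all genes tested. Replicate 3 labelled Bach2-cKO was the highest of its group for 22 of 40, 55%, and for 37.3% of all genes. All members together made up 1.55%, 0.937% and 1.05% of all values in WT and 0.666%, 0.695% and 0.962% in the libraries labelled Bach2-cKO, so that replicate 3 of that group lay above WT replicate 2.

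**Figure D4:**
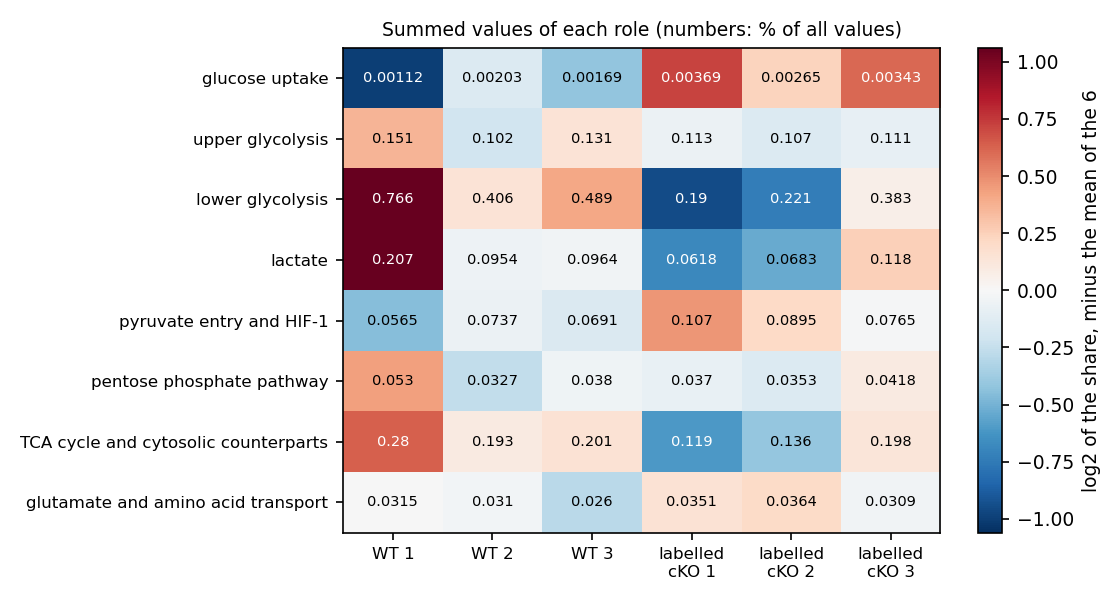
Summed values of each role in each library as a percentage of all values in that library (numbers), colored by the log2 of the share minus its mean over the 6 libraries. Lower glycolysis is highest in WT replicate 1, at 0.766%, and lowest in replicate 1 labelled Bach2-cKO, at 0.190%; glucose uptake runs the other way, from 0.00112% to 0.00369% in the same libraries.

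The lower members have short transcripts. Across the 40 members, Spearman's rho of log2 fold change with transcript length, taken from the longest coding transcript, was 0.719, and across 11266 genes tested with a length it was 0.339; genes are not independent replicates. Median length was 1.82 kb for the 13 lower members, 3.69 kb for the 4 higher, 2.78 kb for all members and 3.00 kb for all genes tested. Under 3 kb, 15.8% of 5638 genes were lower at an unadjusted p under 0.05, against 13 of 26 members; among genes under 3 kb with a mean of at least 500, a limit chosen after seeing the data, 27.5% of 1799 genes and 11 of 18 members were lower. At 3 kb or more, 16.4% of 5628 genes and 3 of 14 members were higher.

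With a smooth trend against length and GC removed from each library, 2 members, *Pfkm* and *Pdk1*, were higher at an unadjusted p under 0.05, against 4.77% of all genes, and 9 were lower, against 9.29% of all genes. The 9 were *Tpi1*, *Gapdh*, *Pgam1*, *Eno1*, *Ldhb*, *G6pdx*, *Idh3a*, *Fh1* and *Mdh2*, without *Aldoa*, *Pgk1*, *Sucla2* and *Mdh1*. The median was then -0.25 over the members and -0.04 over all genes tested, while that of lower glycolysis was -1.004 and that of the TCA group -0.20. Under this setting *Slc2a1* and *Slc2a3* had log2 fold changes of 0.63 and 0.63, *Pgk1* of -0.22, *Pfkm* of 2.96, *Eno1* of -1.70 and *Gapdh* of -1.27. The part of transcript length in the results was not tested beyond this.

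**Figure D5:**
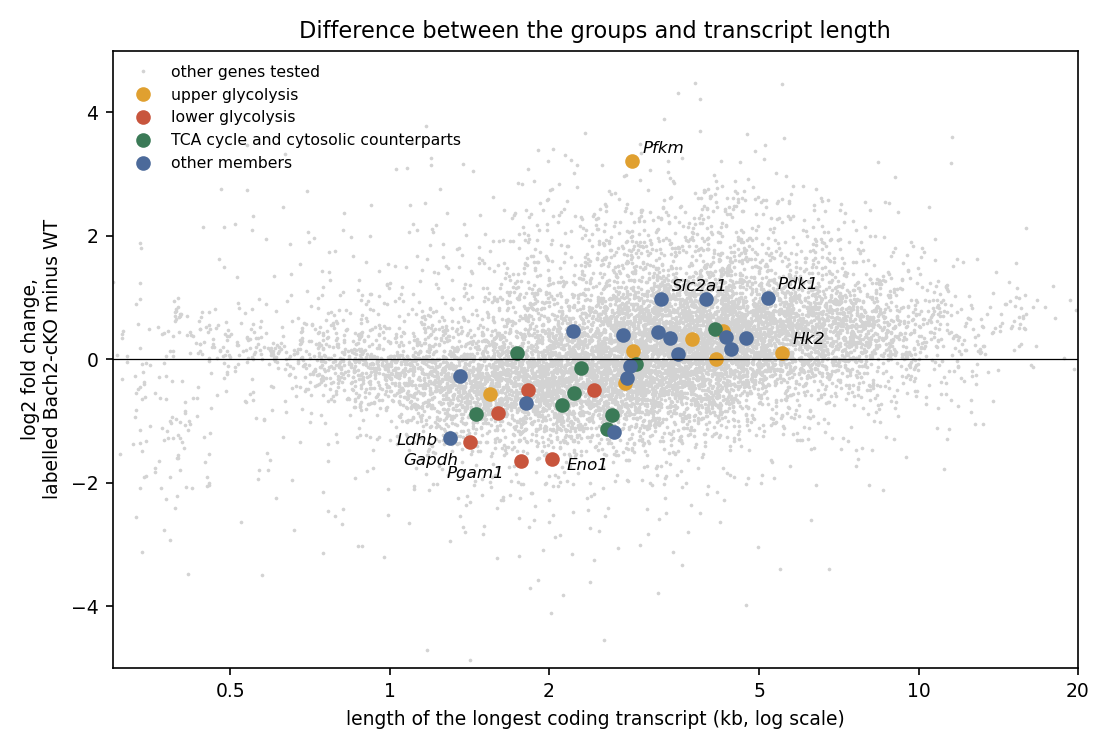
Log2 fold change, libraries labelled Bach2-cKO minus WT, against the length of the longest coding transcript in kb on a log axis, for the members (colored by role) over all genes tested (grey); 71 genes lie outside the axes. Lower glycolysis sits at short lengths and below 0, and *Pfkm*, at 2.88 kb, lies above the members of like length.

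Of 92 further genes of the pathway, 85 were in the table and 79 were tested. Limma gave 5 of them higher at an unadjusted p under 0.05, against 10.1% of all genes tested, and 15 lower, against 10.2%, with a median log2 fold change of -0.03 against 0.08 over all genes, or 0.06 without WT replicate 1 and -0.17 with the same trend removed. Of the other 11 TCA cycle enzymes among them 1 was higher and 6 lower, against the same shares of all genes, with a median of -0.66, or -0.60 without WT replicate 1 and -0.43 with the trend removed. *Idh3g*, the regulatory partner of *Idh3a*, was at 3073, 2649 and 2699 normalized read counts in WT and at 1119, 1146 and 1939 in the libraries labelled Bach2-cKO. No library overlapped, with a log2 fold change of -1.05 (adjusted p = 0.141). *Rpia*, which makes ribose 5-phosphate, was at 23.2, 84.1 and 73.8 in WT and at 417, 203 and 118 in the other group. Again the groups lay apart, and the log2 fold change was 2.01 (adjusted p = 0.151). *Slc43a2*, an amino acid transporter gene, was at 167, 218 and 190.3 in WT and at 511, 332 and 332 in the other group, likewise higher without overlap.

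Among 18 tested genes of the HIF-1 pathway 5 were higher at an unadjusted p under 0.05, against 10.1% of all genes tested, and 2 lower, against 10.2%, with a median log2 fold change of 0.24, or 0.16 without WT replicate 1 and 0.06 with the trend removed. DESeq2 on 5 libraries, with the filter on low values, called 2 higher, against 0.292% of all genes. No DESeq2 count without the filter is given for this list. *Epas1*, which encodes HIF-2α, was at 2.02, 5.61 and 11.4 normalized read counts in WT and at 51.7, 334 and 147 in the libraries labelled Bach2-cKO. Every library labelled Bach2-cKO was far above WT, with a log2 fold change of 4.46 (adjusted p = 0.141). It passed the filter through the group where it is high, with 1 WT library at 10 or more, and limma with no filter gave an adjusted p = 0.143. *Ddit4*, an inhibitor of mTORC1 signaling, was at 38.4, 70.7 and 70.7 in WT and at 396, 223 and 151 in the other group. Its groups did not overlap (log2 fold change 2.02, adjusted p = 0.141), nor did those of *Egln3*, a HIF prolyl hydroxylase (log2 fold change 1.42, adjusted p = 0.158). Of 10 tested genes of MYC, MondoA and their partners 2 were higher and 1 lower, against 10.1% and 10.2% of all genes, with a median of 0.10, or 0.07 without WT replicate 1 and -0.33 with the trend removed; *Myc* itself was at -1.12 with overlapping groups.

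Genes of other cell types and states moved beside these results, and their part in them was not tested. Of 20 proliferation genes 1 was higher and 6 lower at an unadjusted p under 0.05, against 10.1% and 10.2% of all genes, with a median log2 fold change of -0.54, or -0.32 without WT replicate 1 and again -0.54 with the trend removed. Their summed values were 42929.7, 19012 and 29652 in WT, where *Pcna* was the most abundant gene in each library, and 21183, 17285 and 25665 in the libraries labelled Bach2-cKO. WT replicate 1 was thus highest in proliferation genes as in lower glycolysis. *Foxp3*, which marks regulatory cells that the sort keeps, was at 222, 315 and 344 in WT and at 47.3, 140.0 and 91.0 in the libraries labelled Bach2-cKO, without overlap (log2 fold change -1.76, adjusted p = 0.141). Of 5 regulatory markers, all with a log2 fold change below 0, 2 were lower at an unadjusted p under 0.05, against 10.2% of all genes, and 3 lay lower without overlap, against 12.2%. Their median was -0.40, or -0.46 without WT replicate 1 and -0.67 with the trend removed, and DESeq2 on 5 libraries called 1 lower, against 0.505% of all genes. *Ikzf2* was the most abundant of the 5 in each library, and their sum was 5293, 5861 and 7207 in WT and 6367, 5098 and 4310.0 in the other group.

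Of 13 Tfh and CD4 T cell markers 4 were higher and 2 lower at an unadjusted p under 0.05, against 10.1% and 10.2% of all genes, with a median of -0.05, or -0.10 without WT replicate 1. DESeq2 on 5 libraries called 0 of the 13 higher and 2 lower, against 0.292% and 0.505% of all genes. Besides *Cd3e*, *Icos* was lower (log2 fold change -1.03, adjusted p = 0.146) and *Tox2* higher (log2 fold change 1.10, adjusted p = 0.146), both without overlap. Of 8 tested B cell markers 4 had a log2 fold change above 0 and 4 below, with a median of 0.22, or -0.68 without WT replicate 1 and -0.05 with the trend removed. At an unadjusted p under 0.05, 0 were higher and 1, *Ms4a1*, lower, against 10.1% and 10.2% of all genes. DESeq2 on 5 libraries, with the filter on low values, called 0 of the 8 higher and 1 lower, against 0.292% and 0.505% of all genes. No DESeq2 count without the filter is given for these 8. The 8 summed to 240.2, 916 and 618 normalized read counts in WT and to 473, 446 and 373 in the other group, so that the sums overlapped, with *Cd79b* or *Cd22* the most abundant. *Ms4a1* was at 35.3, 33.7 and 45.8 in WT and at 2.96, 2.68 and 10.2 in the other group, without overlap (log2 fold change -2.83, adjusted p = 0.155). It passed the filter through WT, where it is high, with 1 library of the other group at 10 or more, and limma with no filter gave an adjusted p = 0.166. Plasma cell markers were uneven, with 2198, 30330 and 8582 in WT, where *Jchain* alone reached 28803 in WT replicate 2, and 3571, 1872 and 1799 in the other group. Of 4 tested, 0 were higher and 1 lower at an unadjusted p under 0.05, against 10.1% and 10.2% of all genes. Without overlap 1 lay lower, against 12.2%. Cells of the myeloid lineage gave marker sums of 3566, 12115 and 6119 in WT and 4752, 10824 and 3002 in the libraries labelled Bach2-cKO, with *Lyz2* the most abundant gene in each library. Of 9 tested myeloid markers 0 were higher and 1 lower at an unadjusted p under 0.05, against the same 10.1% and 10.2%.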

How the data were processed

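The deposited signal is a normalized read count per gene. According to the study's methods the authors aligned reads with Tophat2, counted them with HTSeq and tested the counts with DESeq2, with the normalization not described; the processing notes submitted with the samples instead name STAR 2.5.2b, R 3.5.1, DESeq2 1.20.0 and GRCm38/mm10, and which of these made the table is not known.

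All 6 libraries entered limma 3.58.1 (R 4.3.3, trended variance) on log2(value + 1), two-sided, over 11296 genes, with Benjamini-Hochberg adjustment. In each library 100% of the values were whole multiples of a step (tolerance 0.1). Taking a step as a read gave 5045131 to 10987752 reads for 5 libraries, used in edgeR 4.0.16 (quasi-likelihood) and DESeq2 1.42.0. WT replicate 1, with a step of 1.01, was left out of these count tests because a step this close to a power of 10 is not accepted as a read. PCR copies were not told apart.

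Lengths and GC content came from the longest coding transcript in GENCODE M21, with 14695 of 14744 genes matched, 366 of them by an older symbol, and their trend was fitted with mgcv 1.9.3. Levels per kb divide a value by that length. Promoters came from RefSeq by symbol, for 36 of 40 members.

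The members and lists were chosen with earlier results of these data known. Values in each library are given for members whose groups do not overlap at an unadjusted p under 0.05, for the member of each role with the highest level per kb, and for *Slc2a1*, *Slc2a3*, *Hk2*, *Ldha*, *Ldhb*, *Hif1a* and *Pdk1*; from other lists, genes without overlap at an unadjusted p under 0.01 and more than 2-fold are named. *Pdk3* and *Myc* were named after their values were seen, and *Hk3* is also named outside these rules. Alternatives covered pseudocounts, filters, normalizations, variance models, library weights, a replicate block, count tests, the length and GC trend and leaving out each library. The procedures were tested on simulated data.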

Additional observations from a re-analysis of the deposited data

How the results depend on the processing

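The counts of genes past the thresholds were 0 higher and 0 lower in limma, and 0 to 0 with single libraries left out. They were 561 and 567 with library weights and 33 and 57 in DESeq2 on 5 libraries; the cause was not tested. The members higher at an unadjusted p under 0.05, 4 of 40 beside 10.1% of all genes, became 2 with median rescaling (8.26% of all genes), 9 with library weights (24.3%), 2 once length and GC were corrected for (4.77%), and 2 to 5 when a library was left out (4.14% to 13.1%). The 13 lower, beside 10.2% of all genes, became 16 with library weights (22.8%), 8 without the variance trend (7.83%), 7 in edgeR on 5 libraries (8.77%), and 6 to 14 with single libraries left out (5.36% to 14%). In the replicate block, 2 were higher (9% of all genes) and 11 lower (9.15%). The labels do not say whether libraries of the same number belong together. Deviations from the group means had correlations of -0.07, 0.12 and -0.04 between them, which cannot decide it. The median of the members lay between -0.17 and -0.03 when a library was left out.

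Of 759 values of single members under an alternative, 34 changed sign, in 11 members, and none of these members had an unadjusted p under 0.05 in limma on 6 libraries; the cause was not tested. With the length and GC trend removed, log2 fold changes became -0.21 for *Hk1*, -0.45 for *Hk2*, -0.0792 for *Gpi1*, -0.28 for *Pfkl*, -0.36 for *Pfkp*, -0.0538 for *Slc16a1*, -0.33 for *Slc16a3*, 0.16 for *Idh1* and -0.43 for *Slc7a5*. *Pfkp* was at -0.0639 with median rescaling, -0.15 with library weights, -0.0159 in edgeR and -0.0423 in DESeq2. *Cs* was at 0.0196 with quantile normalization, 0.14 with library weights, 0.22 in edgeR and 0.20 in DESeq2. With single libraries left out, *Hk2* ran from -0.10 to 0.48, *Gpi1* from -0.00368 to 0.32, *Pfkp* from -0.10 to 0.13, *Slc16a1* from -0.0643 to 0.57, *Slc16a3* from -0.0778 to 0.82, *Cs* from -0.27 to 0.22, *Idh2* from -0.11 to 0.43 and *Slc7a5* from -0.61 to 0.74. Counts of members without overlap were added after seeing the data, and with a library left out lay between 5 and 12 higher (17% to 27.2% of all genes) and between 8 and 16 lower (14% to 23%). *Pfkm* and *Slc16a3* have a mean under 50 and give no value under that filter. These 2 have 8 to 117 and 10 to 72 recovered reads per library. In the libraries labelled Bach2-cKO counting error alone gives a coefficient of variation of 12.6% for *Pfkm*, beside 12.5% observed, and of 1.10% for *Gapdh* and 2.52% for *Eno1*, beside 52.0% and 36.5%.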

Other observations

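Other lists of markers were read from the same libraries. Of 6 markers of naive T cells 1 was higher and 1 lower at an unadjusted p under 0.05, against 10.1% and 10.2% of all genes tested, and *Tcf7* was the most abundant in each library. *Cd8a* and *Cd8b1* summed to 176, 786 and 552 normalized read counts in WT and to 361, 332 and 413 in the libraries labelled Bach2-cKO. Of 4 natural killer and innate lymphoid markers 1 was lower at an unadjusted p under 0.05, against 10.2% of all genes, and *Ncr1* and *Klrk1* were at 0 in WT replicate 1. Of 8 stromal and endothelial markers 6 were in the table, with *Pecam1* the most abundant gene in each library. Erythroid markers reached a sum of 2867 in replicate 3 labelled Bach2-cKO and 744 in WT replicate 2, and 30.8 or less in the other libraries, with *Hbb-bs* the most abundant in both.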
